A study of Rattus norvegicus with 4 samples.

Results

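The miR-143 and miR-145 cluster was represented on the arrays by 4 of 679 rat miRNA probes, those named rno-miR-143, rno-miR-143*, rno-miR-145 and rno-miR-145* (the prefix marks the rat and is left off from here on), where the star marks the minor arm of a precursor. They were chosen by name, and each has 1 spot per array. Prostate RNA came from male TRAP rats, a transgenic rat for adenocarcinoma of the prostate in which the probasin promoter drives a viral T antigen in prostate epithelium. All rats carried the transgene, ate a control diet and were 6 weeks old when treatment began, and no array of a rat without the transgene was used. The 4 groups, with 1 array each, were lateral prostate after OBP-801, lateral prostate after saline, ventral prostate after OBP-801 and ventral prostate after saline. The agent, OBP-801, blocks histone deacetylases, and it or saline was given intravenously 2 times a week for 8 weeks. The treatment protocol gives the dose of OBP-801 as 1 mg/kg, and the agent label as 1 mg. How many rats stand behind an array is not given in the labels, so no group has a replicate and the comparisons of single arrays carry no p-value.

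A miRNA is cut from a hairpin precursor, and either arm can be loaded into an Argonaute protein, where its seed (bases 2 to 8) pairs with target messages. The hairpins of miR-143 and miR-145 are made from 1 long non-coding transcript, and serum response factor with myocardin switches that transcript on in smooth muscle. In vascular smooth muscle miR-145 favours the contractile state, among other ways by repressing Krüppel-like factors, and miR-143 acts on regulators of actin and growth. In the prostate the smooth muscle lies in the stroma around the ducts, not in the epithelium that expresses the transgene. Both miRNAs are often low in carcinoma tissue.

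Both hairpins were found in RefSeq on the minus strand of chromosome 18 of GRCr8, at chr18:57371349-57371453 for Mir143 and at chr18:57369983-57370070 for Mir145, with 1278 bases between them and within the non-coding gene Carmn. They are shown because all 4 probes read pieces of them. Capitals mark the arms, miR-143* before miR-143 in the first hairpin and miR-145 before miR-145* in the second.

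Mir143: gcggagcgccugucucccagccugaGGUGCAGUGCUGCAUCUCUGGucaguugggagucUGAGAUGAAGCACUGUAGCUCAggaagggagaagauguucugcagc

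Mir145: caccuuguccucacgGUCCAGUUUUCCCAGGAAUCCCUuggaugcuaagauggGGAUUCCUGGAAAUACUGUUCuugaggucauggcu

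The mature sequences follow from 5′ to 3′ with the seed in capitals. The array's names carry no arm, so the major arms were taken by their current names, which end in 3p for miR-143 and in 5p for miR-145. All 4 probes were matched to a RefSeq entry by name.

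miR-143: uGAGAUGAagcacuguagcuca

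miR-143*: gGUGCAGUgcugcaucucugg

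miR-145: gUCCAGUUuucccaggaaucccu

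miR-145*: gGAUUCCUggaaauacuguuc

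The 4 seeds differ from each other, so the 4 arms belong to no common seed family. No other entry among the 693 mature rat sequences in the RefSeq table had any of these seeds. The closest other mature sequence was 8 edits (substitutions, insertions or deletions) away for miR-143, 7 for miR-143*, 9 for miR-145 and 6 for miR-145*.

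A probe counted as detected on an array where it exceeded the mean of the blank spots by more than 2 of their SDs. On this measure 329 probes were detected in lateral OBP-801, 290 in lateral saline, 290 in ventral OBP-801 and 299 in ventral saline, and 242 on all 4 arrays. All 11 epithelial marker probes, such as those of the miR-200 family, were detected on every array. The scanner files give cell number 2 for both OBP-801 arrays and 1 for both saline arrays, so cell and agent cannot be told apart. The file numbering joins the 2 arrays of a lobe, so that number and the lobe cannot be told apart either. The 4 arrays limit the precision of every value, and in bulk tissue fewer smooth muscle cells and less RNA per cell cannot be told apart.

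Of the 4 members 3 were detected on all arrays, namely miR-143, miR-143* and miR-145. The spot signal of miR-143, the major arm of its hairpin, was 7378 in lateral OBP-801, 5499.8 in lateral saline, 3267 in ventral OBP-801 and 2662 in ventral saline. Both lateral arrays were thus above both ventral arrays. The signal of miR-145 was 8084 in lateral OBP-801, 2821 in lateral saline, 3148 in ventral OBP-801 and 2888 in ventral saline. For this probe 1 array, lateral OBP-801, stood far above the other 3, which lay close together. The minor arm miR-143* had 354 in lateral OBP-801, 196 in lateral saline, 266 in ventral OBP-801 and 254 in ventral saline, so that lateral OBP-801 was highest and lateral saline lowest. The minor arm miR-145* had 178 in lateral OBP-801, 136 in lateral saline, 129 in ventral OBP-801 and 112 in ventral saline. These lie near the detection limits of 129, 125, 116 and 124 in the same order, and miR-145* was below the limit in ventral saline only. With the limit taken from the negative control spots, 132, 128, 110 and 128, it was again below in ventral saline only. No member came near the brightest spots, which reached 37094 to 41316.

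**Figure D1:**
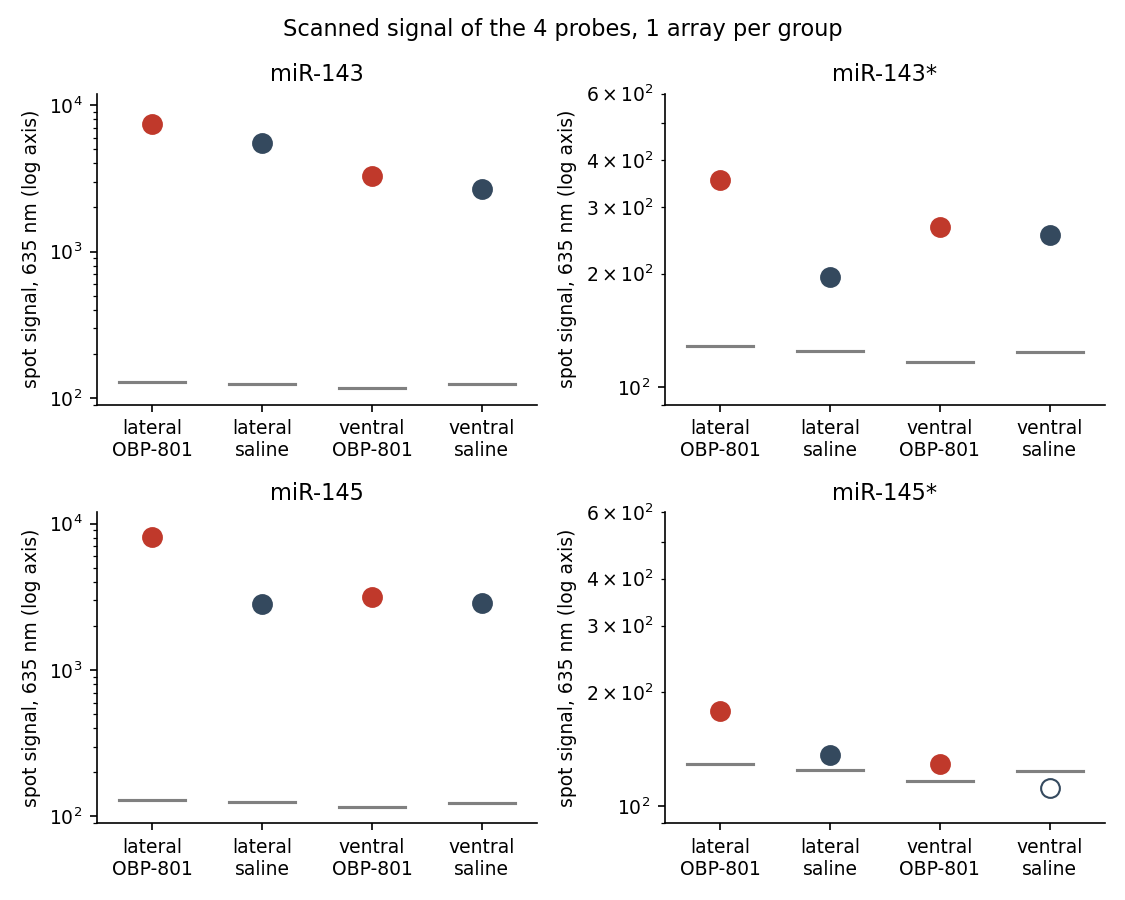
Scanned spot signal on a log axis for each probe, with 1 point per array, OBP-801 in red and saline in dark blue, and grey bars at the detection limit of each array. The miR-145 point of lateral OBP-801 (8084) stands above the other 3, both lateral points of miR-143 stand above both ventral ones, and the open point is miR-145* in ventral saline, below its limit.

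After normexp background correction with an offset of 50 and quantile normalization, the normalized log2 level of miR-145 was 12.67 in lateral OBP-801, 11.53 in lateral saline, 11.58 in ventral OBP-801 and 11.89 in ventral saline. That of miR-143 was 12.36 in lateral OBP-801, 12.36 in lateral saline, 11.73 in ventral OBP-801 and 11.58 in ventral saline. For miR-143* it was 8.09, 7.37, 8.00 and 7.87 in the same order. The range over the 4 arrays was 1.14 for miR-145, 0.78 for miR-143 and 0.72 for miR-143*, against a median range of 0.36 over the 242 probes detected on all arrays. In order of range these members were number 8, 27 and 36 of the 242. Control spots give a spread within an array. In log2 units the SD was between 0.036 and 0.20 for the spike controls and between 0.086 and 0.12 for the 24 negative control spots. It covers spots of 1 array and not the spread between rats.

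The comparison of OBP-801 with saline asks how the inhibitor changes miRNAs in each lobe. In the lateral prostate miR-145 was the probe furthest above saline of the 271 detected on both arrays, with a normalized log2 difference of 1.14 or 2.20-fold. The minor arm miR-143* of the neighbouring hairpin was number 3 of 271, with 0.72 or 1.65-fold. The major arm of that hairpin, miR-143, had a difference of 0.00, and miR-145* had 0.24. At 2-fold, 1 of the 4 members was higher, where 0.369% of all probes were, and 0 were lower, where 0.369% were. At 1.5-fold 2 of the 4 were higher, where 2.21% of all probes were, and 0 were lower, where 2.58% were. The SD of all 271 differences, scaled from their median absolute deviation, was 0.23, and it holds technical and biological differences together. The difference of 0.00 for miR-143 is a product of ranks: the probe was number 12 in brightness of 679 on both lateral arrays, and quantile normalization gives equal ranks equal values. Its scanned signal was 1.34-fold higher after OBP-801, and that of miR-145, which had rank 9 in lateral OBP-801 and rank 23 in lateral saline, 2.87-fold.

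In the ventral prostate 0 of the 3 members detected on both arrays reached 2-fold, where 0.769% of 260 probes were higher and 0% lower. At 1.5-fold 0 of the 3 were higher, where 2.69% of all probes were, and 0 lower, where 3.85% were. The differences between OBP-801 and saline were 0.16 for miR-143, 0.13 for miR-143* and -0.31 for miR-145, against an SD of 0.26 over all 260. The direction of miR-145 was not settled. Its scanned signal was 1.09-fold higher after OBP-801, its brightness rank was 22 in ventral OBP-801 and 18 in ventral saline, and its difference was above 0 under 5 of 9 other ways of processing. For miR-145*, detected after OBP-801 only, the level was at least 1.22-fold higher in ventral OBP-801 than in ventral saline, set against the lowest level detected there on the normalized scale. Its scanned signal was 1.16-fold higher, so this bound does not hold for signals as scanned.

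**Figure D2:**
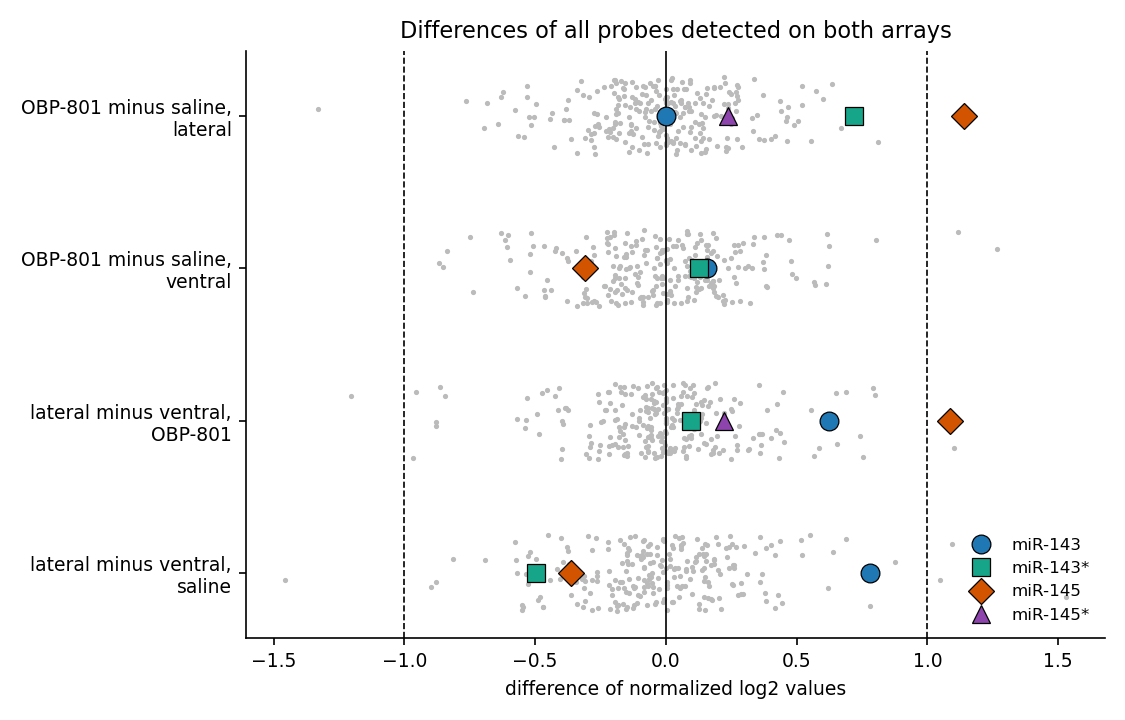
Normalized log2 differences of all probes detected on both arrays of a comparison (grey points, spread vertically at random) and of the members (symbols), with dashed lines at 2-fold. In lateral prostate miR-145 (1.14) lies above all other probes for OBP-801 minus saline, while miR-143 lies at 0.00.

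The value of miR-145 in the lateral prostate was followed through the other ways of processing. Relative to the median of all probes tested, which some scalings shift, the lateral difference of miR-145 was 1.14 with quantile normalization, 1.34 with scaling by 1 constant per array, 1.27 with cyclic loess and 1.22 in the deposited value table. The ventral difference was -0.29 with quantile normalization, against 0.20 with constants, 0.20 with cyclic loess and 0.26 in the deposited value table. For miR-143 the ventral difference on this scale was 0.17 with quantile normalization and 0.37 with constants, and the lateral one 0.00 and 0.24. The lateral miR-143 value was -0.20 after removal of the median of each print block, which turns its direction. The lateral difference of miR-143* was 0.72, 0.76 with constants and 1.06 in the deposited value table.

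**Figure D3:**
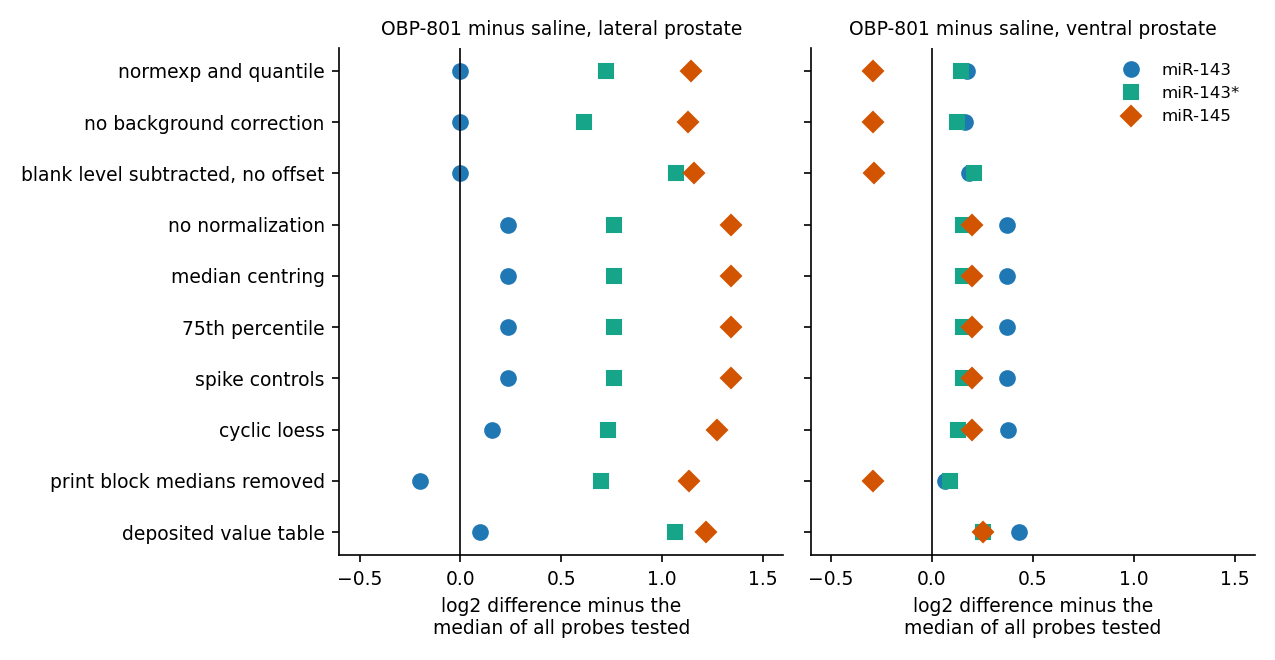
Log2 differences between OBP-801 and saline, minus the median of all probes tested, for miR-143, miR-143* and miR-145 under each way of processing (rows). In the lateral panel miR-145 lies between 1.13 and 1.34 in every row, while in the ventral panel it changes side.

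The difference between the lobes' responses to OBP-801, lateral minus ventral, was 1.45 for miR-145, the highest of 242 probes, 0.59 for miR-143*, number 8, and -0.16 for miR-143. The median over these probes was 0.03 and their scaled SD was 0.25. With 4 arrays in 4 groups this difference could not be tested.

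The comparison of lateral with ventral prostate describes the 2 lobes under each agent. After OBP-801 the lateral lobe had the higher level of all 4 members, by 1.09 for miR-145, 0.63 for miR-143, 0.22 for miR-145* and 0.10 for miR-143*, with an SD of 0.21 over all 271 probes. At 2-fold 1 of the 4 was higher, where 0.738% of all probes were, and 0 were lower, where 0.369% were. At 1.5-fold 2 of the 4 were higher, where 4.06% were, and 0 lower, where 2.58% were. With cyclic loess miR-145 stood at 0.76, below 2-fold. Under saline miR-143 was again higher in the lateral lobe, by 0.78, number 5 of 255 probes, while miR-145 was at -0.36 and miR-143* at -0.50, with an SD of 0.25. At 2-fold 0 of the 3 members tested were higher under saline, where 1.18% of all probes were, and 0 lower, where 0.392% were. At 1.5-fold 1 of the 3 was higher, where 3.53% were, and 0 were lower, where 1.96% were. The scanned signal of miR-143 in the lateral lobe was 2.26-fold that of the ventral lobe after OBP-801 and 2.07-fold under saline. The corresponding ratios of miR-145 were 2.57 and 0.977. Under saline the value of miR-145 between the lobes was 0.03 with scaling on the 75th percentile and 0.08 with spike controls. These scalings put the median of all probes tested at 0.09 and 0.14. Relative to that median miR-145 stayed below 0, at -0.06 with either. For miR-145*, the level on the normalized scale was at least 1.21-fold higher in lateral saline than in ventral saline, where it was not detected. As scanned, its lateral saline signal of 136 was 1.09 times the limit there and stood against a limit of 124 in ventral saline. The bound was thus not shown for signals as scanned.

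With both lobes and both agents in 1 additive limma fit over the 242 probes, 0 probes (0%) passed an adjusted p of 0.05 (Benjamini-Hochberg) for either term, and 40 (16.5%) passed an unadjusted p of 0.05 for each, the members among them being 0 of 3 for the agent and 1 of 3, miR-143, for the lobe. The lobe effect of miR-143, lateral minus ventral, was 0.70 (SE 0.096, adjusted p = 0.0898 with limma, number 4 of 242 from the highest), higher in the lateral lobe under 2 of 2 agents. That adjusted p was the smallest in the fit and was shared by 8 probes. The lobe effects of miR-145, 0.36 (SE 0.39, limma adjusted p = 0.627), and miR-143*, -0.20 (SE 0.18, limma adjusted p = 0.626), did not pass. Of the agent effects, OBP-801 minus saline, that of miR-143* was 0.42 (SE 0.18, limma adjusted p = 0.310), with 2 of 2 lobes above 0. The agent effect of miR-145 was 0.42 (SE 0.39, limma adjusted p = 0.609) and that of miR-143 was 0.08 (SE 0.096, limma adjusted p = 0.662). The fit has 1 residual degree of freedom, so its residual holds only how unequally the lobes responded, and the prior spread shared among probes weighs more than it (2.54 prior degrees of freedom). Its calls depended on the processing: miR-143 passed for the lobe in 6 of 14 alternatives and miR-145 for the agent in 4 of 14.

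Differences and shares between 2 probes within an array mix level with probe response, so a single value is not a ratio of amounts and is printed only to show the change between arrays. On the normalized log2 scale miR-145 minus miR-143 was 0.31 in lateral OBP-801, -0.83 in lateral saline, -0.15 in ventral OBP-801 and 0.31 in ventral saline. As a share of the miR-143 signal, after the mean of the blank spots was subtracted from both, miR-145 stood at 109.7% in lateral OBP-801, 50.4% in lateral saline, 96.2% in ventral OBP-801 and 108.8% in ventral saline. By this measure lateral saline, not lateral OBP-801, was the array apart. There the normalized level of miR-145 lay close to ventral OBP-801. That of miR-143 equalled lateral OBP-801 through equal ranks, while its scanned signal was 1.34-fold higher in lateral OBP-801 than in lateral saline. The lateral saline array enters both the lateral difference of the agents and the difference of the lobes under saline. This quantity does not depend on scaling by constants, and over the 9 alternatives its change between lateral OBP-801 and lateral saline ran from 1.11 to 1.33.

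The values of the arms of the miR-143 hairpin also differed unequally between arrays. They rest on a dim probe, since miR-143* lay at 1.58 (lateral saline) to 2.74 (lateral OBP-801) times the detection limit. Signal of miR-143* above the blanks was 3.36% of that of miR-143 in lateral OBP-801, 1.71% in lateral saline, 5.24% in ventral OBP-801 and 5.92% in ventral saline. The normalized log2 arm difference, miR-143* minus miR-143, was lower in the lateral than in the ventral lobe by -0.53 after OBP-801 and by -1.28 under saline. Between the agents it changed by 0.72 in the lateral and by -0.03 in the ventral prostate. The first value rests on the equal ranks of miR-143, and from signals as scanned the changes were 0.42 in lateral and -0.23 in ventral prostate. With the blanks subtracted, as in the shares, they were 0.97 and -0.18. For the miR-145 hairpin, miR-145* stood at 0.863% of miR-145 in lateral OBP-801, 1.18% in lateral saline and 0.960% in ventral OBP-801, with no value in ventral saline, where it was not detected. Since miR-145* lay at 1.09 to 1.38 times the detection limit on these 3 arrays, the order of its shares rests on very little signal.

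**Figure D4:**
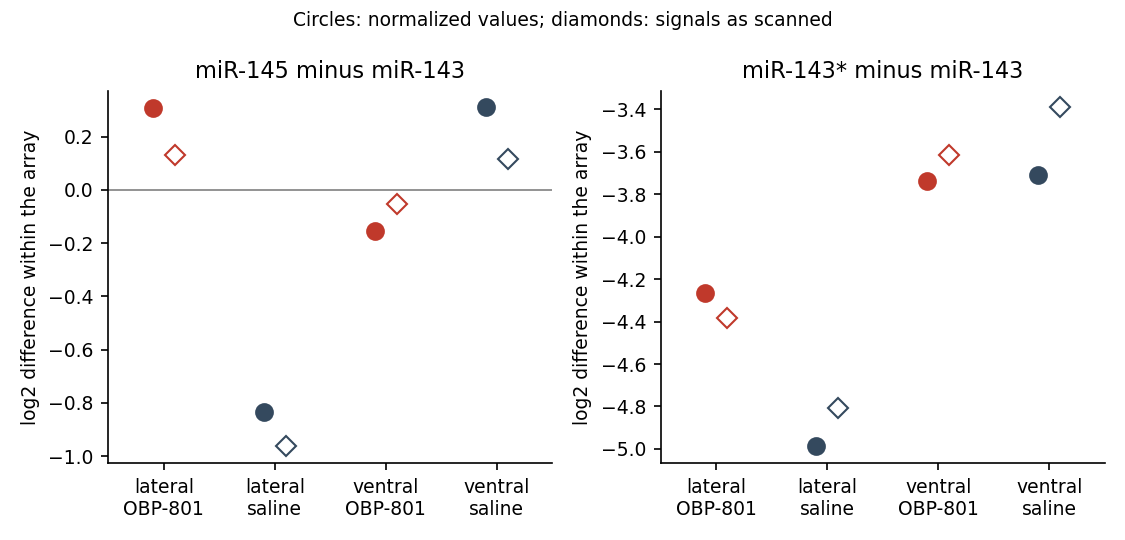
Log2 differences between probe pairs within each array, from normalized values (circles) and scanned signals (diamonds). In the left panel lateral saline (-0.83, normalized) lies below the other 3 arrays, and in the right panel both lateral arrays lie below both ventral ones.

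Among the probes detected on all arrays, those with the smallest root mean square difference from each member, over 4 values centred on the probe's mean, were named. Since they were chosen on these values, a shape shared with the member is built into the choice. Nearest to miR-143 were miR-10b, a miRNA of the Hox clusters (0.068), miR-28 (0.084) and the muscle miRNA miR-133a (0.11), all higher in the lateral lobe under both agents. Nearest to miR-143* were the minor arms miR-92a-2* (0.071), miR-874* (0.087) and miR-211* (0.091). Nearest to miR-145 were the erythroid miR-451 (0.23), miR-347 (0.30) and miR-664 (0.33), which lay further off. Seen from miR-143 the other members were far off: miR-145 was number 188 and miR-143* number 208 of the 241 other probes in nearness to miR-143. Seen from miR-145, miR-143* was number 8 and miR-143 number 111.

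**Figure D5:**
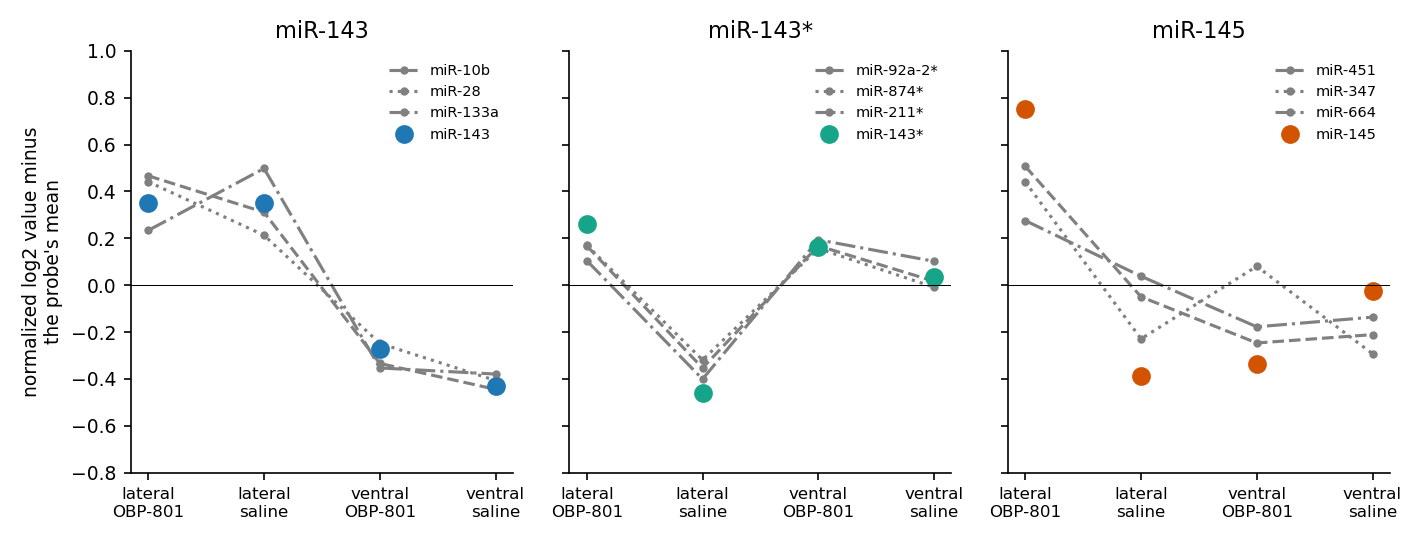
Normalized log2 values minus the probe's mean over the 4 arrays, for 3 members (coloured points) and the 3 probes nearest to each (grey, with lines only to guide the eye). The miR-143 group is higher on both lateral arrays, and the miR-145 group is highest in lateral OBP-801, shapes that follow from choosing the grey probes on these values.

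Markers of other cell types are given beside these values, and their part in the results was not tested. Of the stromal list, miR-199a-3p, miR-199a-5p and miR-214 were detected on all arrays, miR-214* was detected on none, and 3 of 3 were above saline after OBP-801 in both lobes. Their median difference was 0.27 in lateral and 0.48 in ventral prostate, against 0.00 and -0.02 over all probes tested. In lateral 1 of 3 was at 1.5-fold (miR-214, 0.60), where 2.21% of all probes were. The summed normalized level of all 4 stromal probes, detected or not, was 1845 in lateral OBP-801, 1470.4 in lateral saline, 2130 in ventral OBP-801 and 1554 in ventral saline. Between lateral and ventral prostate the median difference of the 3 detected probes was -0.15 after OBP-801 and -0.10 under saline, with 0 of 3 at 1.5-fold. Over all probes tested the medians were -0.01 and -0.04. Of all probes 4.06% were 1.5-fold higher and 2.58% lower after OBP-801, and 3.53% and 1.96% under saline. The endothelial miR-126 and miR-126* had a summed level of 1797, 1373, 1682 and 1242 in the same order of arrays. Both were above saline in both lobes, with medians of 0.24 in lateral and 0.29 in ventral prostate, against 0.00 and -0.02 over all probes.

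Of the striated muscle list 2 of 2 tested were higher in the lateral lobe after OBP-801 and 2 of 3 under saline, where miR-206 was at -0.28. The list's medians were 0.84 and 0.88, against -0.01 and -0.04 over all probes tested. The summed level of all 4 probes of the list, detected or not, was 879 in lateral OBP-801, 876 in lateral saline, 495 in ventral OBP-801 and 516 in ventral saline. The difference of miR-133b between lateral and ventral prostate was 1.10 after OBP-801 and 1.09 under saline, and that of miR-133a was 0.59 and 0.88. Of this list miR-1 was detected on the 2 lateral arrays only, with signals of 200.3 in lateral OBP-801 and 193 in lateral saline. Between the agents in the lateral lobe, where miR-145 differed most, the striated list had a median of -0.17, with 0 of 4 at 1.5-fold. Of all probes there 2.21% were 1.5-fold higher and 2.58% lower. In the leukocyte list, with 4 probes (miR-142-3p, miR-142-5p, miR-150 and miR-223), the summed level was 597 in lateral OBP-801, 687 in lateral saline, 908 in ventral OBP-801 and 1121 in ventral saline. The erythroid miR-451 had lateral and ventral differences of 0.56 and -0.04 between the agents, and miR-144 was detected on no array. The 11 epithelial probes had a median difference between the agents of -0.03 in lateral and -0.21 in ventral prostate, against 0.00 and -0.02 over all probes. Their summed level was 54765 in lateral OBP-801, 55628 in lateral saline, 44729 in ventral OBP-801 and 48036 in ventral saline. The lateral sums rest in part on equal ranks, since miR-200a, miR-200b and miR-429 had lateral differences of 0.00 between the agents. The scanned signal of miR-200b was 38562 in lateral OBP-801 and 24427 in lateral saline. Among the 11 epithelial probes miR-182 was at -1.33 between the agents in the lateral lobe, past 2-fold, where 0.369% of all probes were lower. The other 10 were not past it. The neuronal miR-9 and miR-128 were below saline in both lobes, with medians of -0.18 in lateral and -0.30 in ventral prostate. Over all probes the medians were 0.00 and -0.02, and miR-124 was detected on 1 array.

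Other miRNAs known to set the state of smooth muscle, mostly from blood vessels, were read from a list of 12 names, which matched 13 probes. In the lateral prostate 12 were detected on both arrays, of which 2 were above and 9 below saline after OBP-801. There 0 of the 12 reached 1.5-fold, where 2.21% of all probes were higher and 2.58% lower, and the median was -0.20 against 0.00 over all probes. In the ventral prostate 9 were detected, 4 above and 5 below, with a median of -0.11 against -0.02. At 1.5-fold 0 of the 9 were called, where 2.69% of all probes were higher and 3.85% lower. Among those below saline in both lobes were miR-221 and miR-222, which in vascular smooth muscle favour growth over contraction. They had lateral differences of -0.19 and -0.20 and ventral differences of -0.19 and -0.17 between the agents. The muscle miRNA miR-133a was also below saline in lateral prostate, at -0.26. The 2 above saline there were miR-24, at 0.10, and miR-22, at 0.04. In ventral prostate the 4 above were miR-10a-5p (0.33), miR-133a (0.03), miR-22 (0.004) and miR-24 (0.003). Between the lobes, 1 of 10 was at least 1.5-fold higher and 1 of 10 at least 1.5-fold lower in the lateral lobe under each agent. Of all probes 4.06% were as much higher and 2.58% lower after OBP-801, and 3.53% and 1.96% under saline. The higher of the list was miR-133a and the lower miR-146a, which dampens inflammatory signalling, at -0.96 after OBP-801 and -0.69 under saline. The list's median between the lobes was -0.25 after OBP-801 against -0.01 over all probes, and -0.40 under saline against -0.04.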

How the data were processed

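MicroRNAs of total RNA, labelled with Hy5 per the labels' protocols, were measured on 4 one-colour arrays with 3136 spots each. Per the file headers, the deposited scanner files hold the median spot intensity of the red channel and the local background intensity, with least-squares lines that join 3 gains. No header names a background correction or normalization, and no source used here gives the array's maker, the software or which gain gave a value. The deposited value table holds the authors' linear intensity values by unstated steps. Each column was a straight line of the scanner signal with its zero near the blank level and its median at 25. It was an alternative.

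Background was corrected with normexp (offset 50, all spots), control spots were left out, 1 faulty spot (miR-26a, ventral saline) was dropped, and quantile normalization and log2 followed, in limma 3.58.1 under R 4.3.3. The offset understates differences of dim probes. The additive limma fit had lobe and agent as terms, with 1 residual and 2.54 prior degrees of freedom. Its code was run on simulated data with 1 noise spread for all probes and agent effects equal in both lobes. That run checks the code and cannot show how the fit serves these arrays, whose residual holds the unequal responses of the lobes. Named probes are the members, the 3 nearest to each, and probes of the fixed lists. Members and lists were chosen with earlier results of these data known. For probes on 1 of 2 arrays a bound was given, set against the dim array's lowest detected value or the probe's own, whichever was higher. Marker lists covered stroma, epithelium, striated muscle, endothelium, leukocytes, erythroid cells and neurons. RefSeq sequences are from GRCr8.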

Additional observations from a re-analysis of the deposited data

Results flagged for a closer look

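The response of miR-145 to OBP-801 had opposite directions in the 2 lobes, 1.14 in lateral and -0.31 in ventral prostate, a difference of 1.45 on the log2 scale. The same 4 values give opposite directions of miR-145 between the lobes, 1.09 after OBP-801 and -0.36 under saline, again 1.45 apart. The lobe difference of miR-143* was 0.10 after OBP-801 and -0.50 under saline, 0.59 apart. None of these differences was tested, since each rests on 4 single arrays, and the negative values of miR-145 turned positive under some scalings. Relative to the median of all probes tested, the ventral value still turned, while the value between the lobes under saline did not. The part of the lateral saline array in them was not tested.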

How the results depend on the processing

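No paired analysis was possible because each group has 1 array. Leaving out an array was not run, since it would end every comparison it enters. The count of members at 2-fold was 0 in the ventral agent comparison under all alternatives. In the lateral one it was 1, where 0.738% of all probes were higher or lower, and 2 with the blank level subtracted and in the deposited value table, where 3.69% were under each. Between the lobes after OBP-801 it was 1 (1.11% of all probes), with 2 without normalization (2.95%) and with spike scaling (3.32%), 0 with cyclic loess (1.11%) and 3 in the deposited value table (15.1%). Under saline it was 0 (1.57%), with 1 without normalization and with median and 75th percentile scaling (1.96% each) and with spike scaling (2.35%). The cause of these and the following changes was not tested.

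In the limma fit 0 probes passed for either term. Its prior degrees of freedom were 2.54. They were 5.49 without background correction, 11.9 with the blank level subtracted, 3.94 with median centring and 4.33 with print block medians removed. With spikes they were 25.9, and they were infinite without normalization, with the 75th percentile, with cyclic loess and in the deposited value table. Where they are infinite 1 spread serves all probes, and no alternative adds replicates. For the agent, 9 passed without background correction, 3 with the blank level subtracted, 4 without normalization, 27 with the 75th percentile, 18 with spike scaling, 33 with cyclic loess and 2 with the stricter filter. For the lobe, the counts were 20, 16, 28, 25, 59 and 31 under the first 6 of these, 19 with median centring, 9 with print block medians removed, and 2 in the deposited value table, 2 without the filter and 3 with a trend. The agent effect of miR-145 passed in limma at 0.83 without normalization (adjusted p = 0.00441), 0.83 with the 75th percentile (adjusted p = 8.81e-05), 0.82 with spikes (adjusted p = 0.0199) and 0.72 with cyclic loess (adjusted p = 0.000185), and its adjusted p under the other alternatives was up to 0.739. The lobe effect of miR-145 passed at 0.67, 0.52 and 0.73 under the first 3 of these. Most lobe calls under these 3 were higher in the lateral lobe: 24 of 28 without normalization, 16 of 25 with the 75th percentile and 55 of 59 with spikes. The median of all probes between the lobes after OBP-801 was 0.28, -0.07 and 0.29 in the same order, so these scalings can shift all probes together. The lobe effect of miR-143 passed at 0.70 without background correction, 1.12 without normalization, 0.93 with median centring, 0.97 with the 75th percentile, 1.18 with spikes and 0.66 with cyclic loess, with limma adjusted p from 7.44e-07 to 0.0197, and reached 0.174 elsewhere. The agent effect of miR-143 turned to -0.086 with print block medians removed, and the lobe effect of miR-143* to 0.045 with spikes. The agent effect of miR-143* passed at 0.51 with the 75th percentile (limma adjusted p = 0.0277) and at 0.41 with cyclic loess (limma adjusted p = 0.0427).

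For OBP-801 minus saline in ventral prostate miR-145 stood at 0.13 without normalization, 0.20 with median centring, 0.33 with the 75th percentile, 0.17 with spikes and 0.18 with cyclic loess, and miR-143 at 0.51 with the 75th percentile. In lateral prostate miR-145 stood at 1.53, 1.47 and 1.38 and miR-143 at 0.43, 0.36 and 0.25 without normalization, with spikes and in the deposited value table. Between the lobes after OBP-801 miR-145 stood at 1.37, 1.38 and 1.41 and miR-143 at 1.18, 1.20 and 1.22 under the same 3, and miR-145 at 0.76 with cyclic loess. Under saline miR-143 stood at 1.05, 1.04, 1.12 and 1.17, and miR-145 at -0.039, -0.053, 0.027 and 0.079, without normalization and with median, 75th percentile and spike scaling. The difference between the lobes' responses was 1.05, 0.99 and 1.08 for miR-145 with median centring, the 75th percentile and cyclic loess, and 0.13 without normalization and 0.29 in the deposited value table for miR-143. Of the minor arms, miR-143* in the ventral agent comparison stood at -0.22 in the deposited value table. In the lateral one it stood at 1.07 with the blank level subtracted, 0.95 without normalization and 1.22 in the deposited value table, and miR-145* at 0.65, 0.44 and 0.92. Between the lobes after OBP-801 miR-143* stood at 0.41 without normalization and 0.58 in the deposited value table. There miR-145* stood at 0.62 with the blank level subtracted, 0.47 without normalization, 0.48 with spikes and 1.26 in the deposited value table. Under saline miR-143* stood at -0.76 with the blank level subtracted and -0.86 in the deposited value table, and its difference between the lobes' responses at 0.88, 0.87 and 1.44 with the blank level subtracted, without normalization and in the deposited value table.

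Over all probes, the number at least 2-fold apart was 2 in the ventral agent comparison and 40 in the deposited value table, whose median lies at -0.47 there. After OBP-801 the lateral lobe was 2-fold higher for 2 probes, and for 40 in the deposited value table, whose median lies at 0.51. Signal near the detection limit bounds what can be said of miR-145*.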
